A study of Homo sapiens with 6 samples.

Results

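The aminoacyl-tRNA synthetases are the enzymes that join each amino acid to its transfer RNA. They were taken here as 36 genes out of the 17499 in the deposited table, 20 whose enzymes work in the cytosol and 16 whose enzymes work in mitochondria. A gene was a member when its name in the table was on a list of synthetase names, with or without a final 1. Names that end in 2 were counted as mitochondrial and the rest as cytosolic, including FARSA and FARSB, the subunits of the phenylalanine enzyme. All 36 genes were found in the table, and all 36 averaged 10 normalized counts or more, as the test required.

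mRNA was sequenced from HL60 cells, an established human promyelocytic leukemia line, in 3 libraries of akirin2 KO cells (KO1 to KO3, also labelled AKR2 knock down) and 3 of wild type cells (WT1 to WT3). Akirin2 is a nuclear protein that acts as a cofactor of transcription. The KO cells had received guide RNA and Cas9 protein against akirin2 and were used as an edited pool that was not cloned. The study reports incomplete knockout both by sequence and by protein, so part of the pool was not knocked out. The WT cells had received SpCas9 alone, and both were grown in RPMI 1640 medium with fetal bovine serum. The libraries held 36096459 to 47607520 reads in KO and 41419318 to 52244122 in WT. The labels call the replicates biological but do not say that they were separate cultures, so the p-values rest on the spread between libraries, which may be technical. AKIRIN2 itself had 1613 to 1731 normalized counts in KO and 2378 to 2450 in WT, a log2 fold change of −0.54 (limma adjusted p = 1.3e-08). The 5 promyelocyte markers were abundant in every library, with summed levels of 1010982 to 1046547 normalized counts in KO and 341130 to 360907 in WT, and none of the 5 erythroid markers is listed in the table. Of the T lymphocyte markers 3 of 5 are listed, with sums of 131 to 153 in KO and 628 to 648 in WT, but CD247 among them was higher in KO (37.9 against 18 normalized counts). The 2 B lymphocyte markers listed summed to 238 to 253 in KO and 157 to 177 in WT, the 2 megakaryocyte markers to 262 to 307 and 55.4 to 70.3, and the 3 epithelial markers to 27.1 to 142 and 212 to 573. The 4 fibroblast markers listed summed to 321 to 770 in KO and 300 to 5224 in WT. WT1 and, less so, KO3 stood apart in FN1 among these, with 4609 and 680 normalized counts. The other libraries had 395 (WT2), 115 (WT3), 184 (KO1) and 209 (KO2). COL1A1 was high in WT1 alone (519 normalized counts). COL1A2 and COL3A1 did not follow, at 56.3 and 39.4 in WT1. KO3 was their lowest library, at 27.6 and 12. Of the epithelial markers, KRT8 and KRT18 were likewise highest in WT1 (197 and 173 normalized counts) and next in KO3 (75.6 and 55.2). In the other libraries KRT8 had 13.1 to 50.3 and KRT18 had 3.37 to 17.4. CDH1 separated the groups instead, with 10 to 11 in KO and 167 to 203 in WT. Results are also given without WT1 and KO3 together. CD247 and the fibroblast and epithelial markers are named because of these values. The part of these differences in the results on synthetases was not tested.

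Each synthetase recognizes a single amino acid and the transfer RNAs that carry it, and the charged transfer RNAs are what the ribosome reads the message with. Animal cells use separate nuclear genes for most of the cytosolic and mitochondrial enzymes, whereas GARS and KARS each supply the enzyme of both compartments. Many cytosolic synthetase genes are known targets of ATF4, a transcription factor translated when amino acids run short or protein folding fails, which binds with C/EBP proteins to a composite element in DNA.

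The letters around the start sites are given first because the core of that element, TGATGNAA, lies in most of the cytosolic genes with the largest decreases. It was searched on both strands in windows from 250 bases before to 50 bases after each start listed by RefSeq on GRCh38.p14, where 30 of the 36 genes have a window. A match was present in 7 of the 16 cytosolic genes with a window (43.8%) and in 1 of the 14 mitochondrial ones (7.14%). Among the 10397 genes that have a window and a name in the table it was present in 282 (2.71%), and in 2.01% of their windows. The matches are printed 5′ to 3′ on the strand that carries them, with the 8 matching bases in capitals.
CARS: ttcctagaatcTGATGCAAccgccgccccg
AARS: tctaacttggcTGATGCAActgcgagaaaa
MARS: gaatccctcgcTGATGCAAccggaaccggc
TARS: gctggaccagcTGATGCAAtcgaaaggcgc
IARS: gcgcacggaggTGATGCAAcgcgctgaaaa
GARS: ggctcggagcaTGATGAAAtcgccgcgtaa
NARS: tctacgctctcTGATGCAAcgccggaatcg
YARS2: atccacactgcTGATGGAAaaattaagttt

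The match read TGATGCAA in 6 of the 7 cytosolic genes, TGATGAAA in GARS and TGATGGAA in YARS2. The stretches lie at chr11:3057407-3057436 for CARS, chr16:70289675-70289704 for AARS and chr9:92293692-92293721 for IARS on the plus strand. On the minus strand they lie at chr12:57488053-57488082 for MARS, chr5:33440956-33440985 for TARS, chr7:30594834-30594863 for GARS, chr18:57621804-57621833 for NARS and chr12:32756076-32756105 for YARS2. Only in NARS and YARS2 is the strand shown also that of the gene. Counted from the first transcribed base as 1, with no base 0, the match spanned −2 to 6 in CARS, −4 to 4 in MARS, 3 to 10 in TARS and 15 to 22 in NARS. It spanned −13 to −6 in IARS, −33 to −26 in GARS, −187 to −180 in AARS and −197 to −190 in YARS2. In CARS, MARS, TARS, IARS, GARS and NARS the match thus lay next to the start, and in AARS and YARS2 well upstream. CARS, GARS and TARS also have another listed start, whose window holds no match. Their positions are counted from the start whose window holds it. The 250 bases before the start of IARS, at chr9:92293698-92293947 on the minus strand, are shown as an example of the whole stretch, with the reverse complement of the match in capitals.
IARS: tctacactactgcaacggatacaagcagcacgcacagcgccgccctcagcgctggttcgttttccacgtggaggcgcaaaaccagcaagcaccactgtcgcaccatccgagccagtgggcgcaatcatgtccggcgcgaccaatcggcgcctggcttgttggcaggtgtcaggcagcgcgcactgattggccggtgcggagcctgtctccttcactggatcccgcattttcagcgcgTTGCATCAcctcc

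Transcripts of the cytosolic synthetases were mostly lower in KO, and those of the mitochondrial synthetases were mostly higher. Of the 20 cytosolic genes 15 were called lower, 3 higher and 2 did not pass the test, with log2 fold changes of KO over WT from −1.60 to 0.49 and a median of −0.40. Of the 16 mitochondrial genes 13 were called higher, 1 lower and 2 did not pass the test, with log2 fold changes from −0.34 to 0.70 and a median of 0.34. Over all 17425 genes tested 30.3% were called lower and 30.3% higher, 60.6% in all, and the median log2 fold change was −0.0066. A call is an adjusted p under 0.05 from limma on log2(normalized count + 1), and every log2 fold change here is on that scale. The libraries of the groups did not overlap in 19 cytosolic and 14 mitochondrial genes, against 65.2% of all genes tested. Every KO library lay below every WT library in 16 cytosolic genes, and in 32.5% of all genes tested. In bulk RNA, fewer cells that express a gene and less RNA per cell cannot be told apart.

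**Figure D1:**
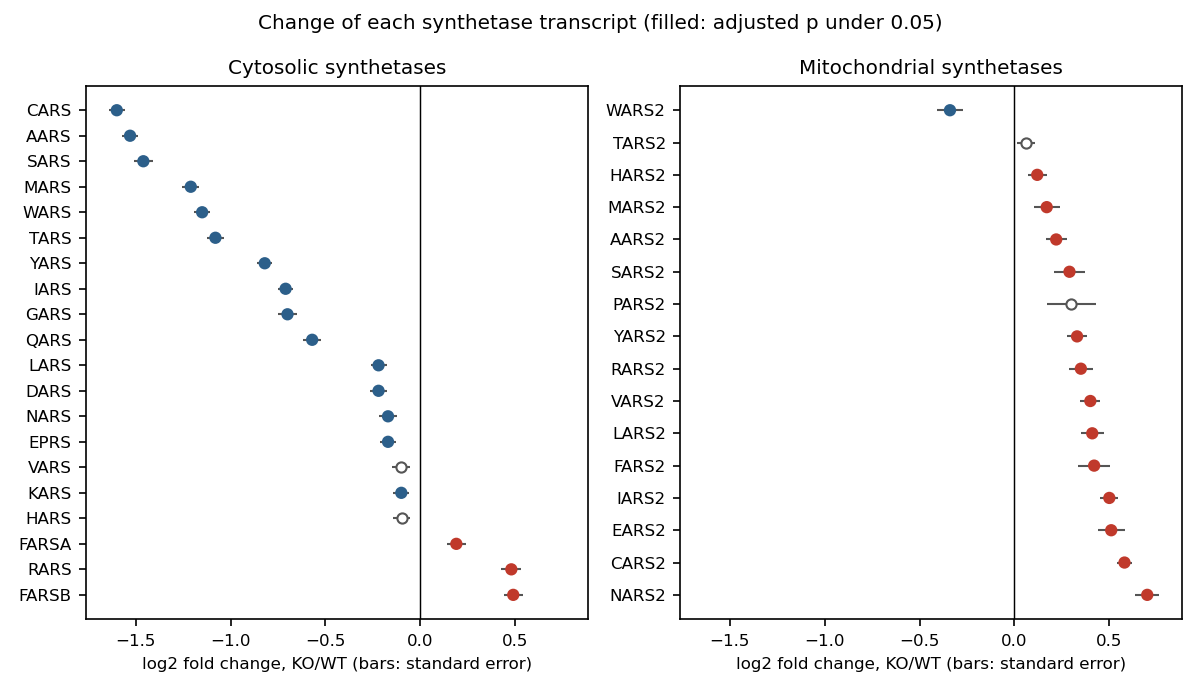
Log2 fold change of KO over WT for each cytosolic and mitochondrial synthetase, with its standard error as a bar; filled points passed the test at an adjusted p under 0.05 (blue lower, red higher in KO) and open points did not. The cytosolic genes reach down to −1.60 in CARS, and the mitochondrial genes lie above 0 except WARS2 at −0.34.

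The decreases were large in part of the cytosolic group. Of its genes 6 were called with a log2 fold change of −1 or lower and 10 with −0.5 or lower, against 8.37% and 17.8% of all genes tested, and no mitochondrial gene reached either. CARS, which charges cysteine and lies on chromosome 11 (GRCh38, 3000922 to 3057613, minus strand), had 2820, 2761 and 2758 normalized counts in KO1, KO2 and KO3 and 8301, 8491 and 8417 in WT1, WT2 and WT3. The WT libraries were about 3.02 times the KO libraries and did not overlap them, and the log2 fold change was −1.60 (standard error 0.041, limma adjusted p = 1.2e-16).

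AARS, which charges alanine and also removes serine and glycine attached in error, had 5514, 5439 and 5448 normalized counts in KO and 15693, 16194 and 15347 in WT. The 3 KO libraries lay within a few percent of each other and far below every WT library, with a log2 fold change of −1.53 (standard error 0.041, limma adjusted p = 2.1e-16). SARS, the serine enzyme, whose product also feeds the making of selenocysteine, had 1829, 1795 and 1778 normalized counts in KO and 4940, 5323 and 4661 in WT. Its WT libraries spread more than its KO libraries without reaching them, and the log2 fold change was −1.46 (standard error 0.051, limma adjusted p = 9.7e-15). No match to the element was present in the RefSeq windows of SARS.

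MARS, which charges methionine on both initiator and elongator transfer RNA, had 7139, 7112 and 7295 normalized counts in KO and 16746, 17416 and 15728 in WT. Its log2 fold change was −1.21 (limma adjusted p = 2.4e-14). The gene overlaps DDIT3, itself a target of ATF4, and 355 bases (5.05%) of its joined exons are shared with DDIT3 on the other strand and 519 (7.38%) with ARHGAP9. The sources used here do not say whether the counting used strand, so reads from these stretches cannot be told apart. DDIT3, named for this overlap and not by the rule for named genes, had a log2 fold change of −1.59 (limma adjusted p = 2.4e-15).

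WARS, the tryptophan enzyme, which is also an interferon-induced gene, had 6642, 6577 and 6616 normalized counts in KO and 14901, 15166 and 13972 in WT, a log2 fold change of −1.15 (limma adjusted p = 3.0e-14). TARS, the threonine enzyme, had 3351, 3598 and 3502 normalized counts in KO and 7627, 7337 and 7102 in WT, a log2 fold change of −1.08 (limma adjusted p = 1.6e-13). In both genes every KO library held less than every WT library, by about a factor of 2.22 in WARS and 2.11 in TARS. 

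A second set of cytosolic genes fell by a smaller factor. YARS, the tyrosine enzyme, whose fragments also act as cytokines outside the cell, had a mean of 9849 ± 154 normalized counts in KO and 17398 ± 263 in WT (SD, n = 3 each; log2 fold change −0.82, limma adjusted p = 1.7e-12). IARS, the isoleucine enzyme of the multisynthetase complex, had 7010 ± 128 in KO and 11450 ± 252 in WT (log2 fold change −0.71, limma adjusted p = 1.9e-11). GARS, which charges glycine in both compartments, had 9465 ± 347 in KO and 15401 ± 944 in WT (log2 fold change −0.70, limma adjusted p = 2.5e-10). QARS, the glutamine enzyme, had 11115 ± 242 in KO and 16539 ± 1002 in WT (log2 fold change −0.57, limma adjusted p = 3.1e-09). KO and WT libraries did not overlap in any of these 4 genes, and the SD was larger in WT than in KO in each.

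Another 5 cytosolic genes were called lower with changes of 0.22 or less on the log2 scale. LARS, the leucine enzyme, which is also a sensor of leucine for mTORC1, had 13642, 14088 and 13575 normalized counts in KO and 16441, 16219 and 15562 in WT (log2 fold change −0.22, limma adjusted p = 1.3e-04). DARS, the aspartate enzyme, had the same log2 fold change of −0.22 (adjusted p = 3.6e-04), and NARS, the asparagine enzyme, one of −0.17 (adjusted p = 0.0053). EPRS, a single protein that charges both glutamate and proline, had 12972 ± 407 normalized counts in KO and 14549 ± 478 in WT (log2 fold change −0.17, limma adjusted p = 0.0027). KARS, the lysine enzyme of both compartments, had 14753, 14629 and 14633 in KO and 15893, 16209 and 15122 in WT, with an adjusted p of 0.045 from limma. Its call was lost under 12 of the 20 alternatives, among them leaving out KO1, KO2, KO3, WT1 or WT2, with an adjusted p of up to 0.27. Without WT1 and KO3 together the calls of NARS (limma adjusted p = 0.18) and EPRS (limma adjusted p = 0.094) were lost as well, and that of NARS also in limma without a variance trend (adjusted p = 0.074). These 5 genes differed from the earlier ones in that KO remained at 0.857 to 0.932 of the WT level.

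The valine enzyme VARS and the histidine enzyme HARS did not pass the test. VARS had 10358, 9780 and 10050 normalized counts in KO and 10122, 11295 and 11007 in WT, so that the groups overlapped (log2 fold change −0.10, limma adjusted p = 0.066). Without WT1 it had a log2 fold change of −0.15 and an adjusted p of 0.011 from limma. HARS had 3278, 3330 and 3417 in KO and 3592, 3650 and 3487 in WT, which did not overlap (log2 fold change −0.098, limma adjusted p = 0.063), and without WT3 its adjusted p was 0.033.

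Of the cytosolic genes 3 were higher in KO, and they belong to the phenylalanine and arginine enzymes. FARSB, the beta subunit of the phenylalanine enzyme, had 7244, 7417 and 7031 normalized counts in KO and 5368, 5383 and 4692 in WT, with a log2 fold change of 0.49 (standard error 0.051, limma adjusted p = 9.4e-08). RARS, the arginine enzyme and a member of the multisynthetase complex, had 3105, 3295 and 3032 in KO and 2392, 2240 and 2111 in WT, with a log2 fold change of 0.48 (standard error 0.053, limma adjusted p = 1.7e-07). Both were 1.4 times as high in KO as in WT, with every KO library above every WT library. FARSA, the alpha subunit, which pairs with FARSB in the same enzyme, had 26076, 24054 and 25104 in KO and 20793, 23496 and 21863 in WT. Its groups lay closer, with a log2 fold change of 0.19 (limma adjusted p = 0.003), and its call was lost without WT1 and KO3 together (adjusted p = 0.097) and in limma without a variance trend (adjusted p = 0.059), which leaves 2 cytosolic genes called higher. The ratio of FARSA to FARSB normalized counts was 3.6, 3.24 and 3.57 in KO and 3.87, 4.36 and 4.66 in WT, a ratio looked at after its values were seen.

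**Figure D2:**
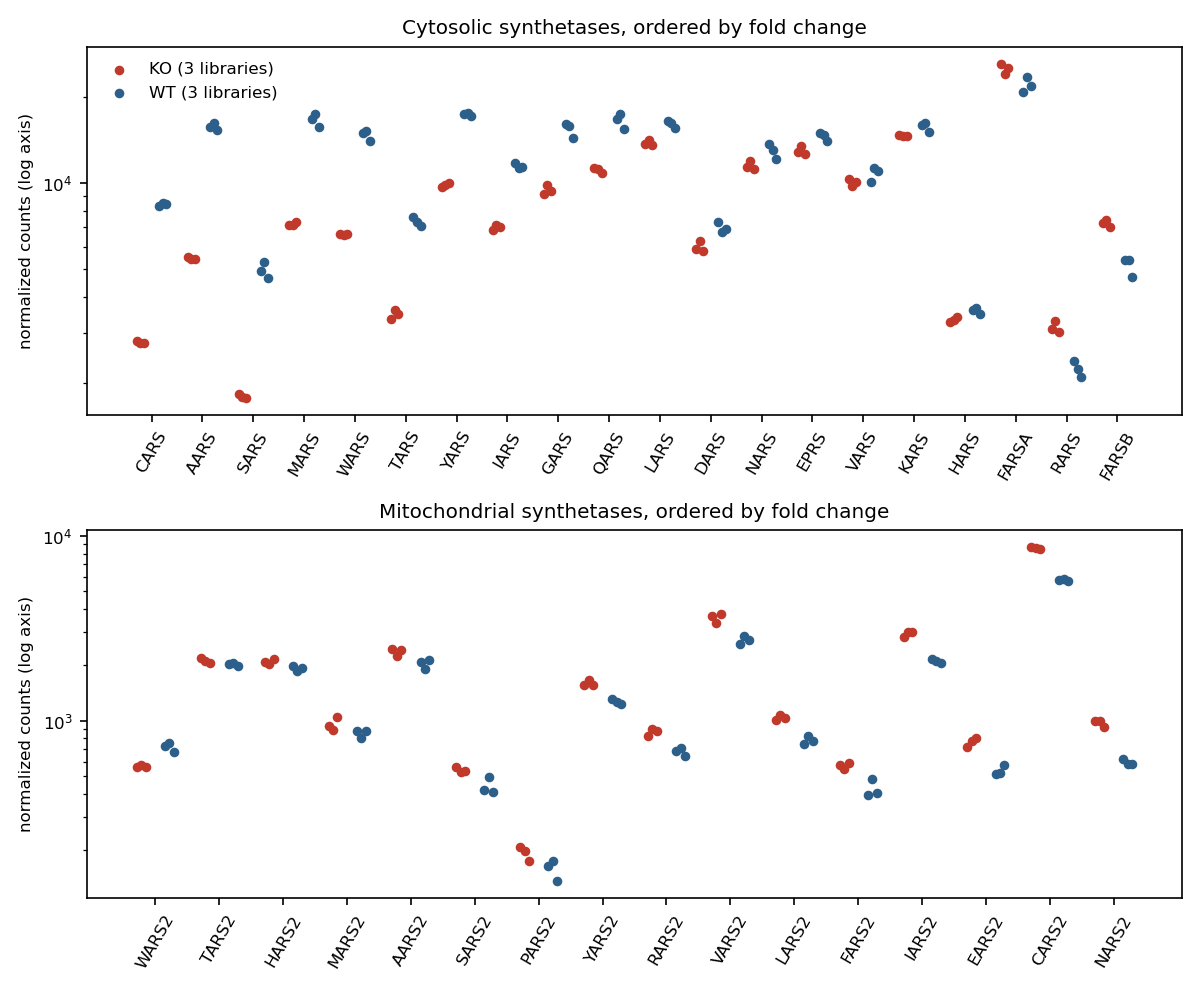
Normalized counts of each synthetase in the 3 KO and 3 WT libraries, on a log10 axis, cytosolic and mitochondrial genes apart, 1 point a library. CARS, with 2758 to 2820 in KO and 8301 to 8491 in WT, shows the widest gap, and VARS is a gene whose libraries overlap.

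Among the mitochondrial genes NARS2, which charges asparagine, had the largest increase. It had 989, 988 and 923 normalized counts in KO and 617, 584 and 585 in WT. Every KO library stood above every WT library, by 1.62 times on average, and the log2 fold change was 0.70 (standard error 0.063, limma adjusted p = 1.3e-08). CARS2, the mitochondrial cysteine enzyme, which also makes cysteine persulfides, had 8692, 8589 and 8494 in KO and 5787, 5815 and 5679 in WT. Its libraries agreed within about 100 counts of their group mean and were far apart between groups, with a log2 fold change of 0.58 (standard error 0.04, limma adjusted p = 3.0e-10). CARS2 thus rose while its cytosolic counterpart CARS had the largest fall of the 36 genes.

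EARS2, which charges glutamate in mitochondria, had 720, 770 and 806 normalized counts in KO and 514, 522 and 571 in WT (log2 fold change 0.51, limma adjusted p = 3.8e-06). IARS2, the isoleucine enzyme, had 2835, 3014 and 3016 in KO and 2139, 2094 and 2040 in WT (log2 fold change 0.50, limma adjusted p = 2.6e-08). The groups of both genes were clear of each other. At a log2 fold change of 0.5 or more NARS2, CARS2 and EARS2 were called, with IARS2 just under that value before rounding, and no cytosolic gene was. The share of all genes tested was 16.1%.

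FARS2, LARS2, VARS2, RARS2, YARS2, SARS2 and AARS2, which charge phenylalanine, leucine, valine, arginine, tyrosine, serine and alanine, rose by smaller amounts. FARS2 had 577, 549 and 591 normalized counts in KO and 397, 483 and 404 in WT (log2 fold change 0.42, limma adjusted p = 2.1e-04). The log2 fold change was 0.41 for LARS2 (adjusted p = 9.7e-06), 0.40 for VARS2 (adjusted p = 1.9e-06), 0.35 for RARS2 (adjusted p = 1.1e-04) and 0.33 for YARS2 (adjusted p = 2.6e-05), all from limma. In all 7 genes the KO libraries stood above the WT libraries. SARS2 had a log2 fold change of 0.29 (limma adjusted p = 0.0049) and AARS2 of 0.22 (limma adjusted p = 0.0019). VARS2 shares 1858 bases (21.99%) of its joined exons with GTF2H4 on the same strand, and SARS2 shares 1492 bases (46.18%) with AC011455.2 on the same strand, so that the counts of both are uncertain where reads could be split or dropped.

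The calls of MARS2 and HARS2, the methionine and histidine enzymes, rested on small differences. MARS2 had 939, 888 and 1039 normalized counts in KO and 877, 801 and 873 in WT (log2 fold change 0.17, limma adjusted p = 0.042), and lost its call without KO1, KO3 or WT2, with an adjusted p of up to 0.25. It also lost it without a variance trend in limma (adjusted p = 0.13) and in DESeq2 (adjusted p = 0.072). HARS2 had 2071, 2023 and 2158 in KO and 1964, 1851 and 1921 in WT (log2 fold change 0.12, limma adjusted p = 0.037), and lost its call without KO1, KO3 or WT2, with an adjusted p of up to 0.17. It also lost it with the replicate number as a block (adjusted p = 0.064), without a variance trend in limma (adjusted p = 0.089) and in DESeq2 (adjusted p = 0.057). HARS2 starts 436 bases from HARS on the other strand and shares 437 bases (11.7% of its joined exons) with it. The proline enzyme PARS2, the least abundant member, had 207, 197 and 173 in KO and 163, 173 and 135 in WT. Its groups met at 173 and it did not pass the test (log2 fold change 0.30, limma adjusted p = 0.052), but passed it in 10 of the 20 alternatives, with an adjusted p between 0.021 and 0.046. TARS2, the threonine enzyme, had 2104 ± 69.2 in KO and 2017 ± 35.4 in WT (SD, n = 3 each) and did not pass the test (limma adjusted p = 0.29).

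The mitochondrial tryptophan enzyme WARS2 went the other way. It had 560, 576 and 561 normalized counts in KO and 724, 753 and 678 in WT. No library of a group reached the other group, and the log2 fold change was −0.34 (standard error 0.067, limma adjusted p = 2.1e-04). WARS and WARS2 were thus both lower, the former by the larger factor.

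Summed over the 20 cytosolic genes, the libraries held 172879, 173662 and 171054 normalized counts in KO and 240730, 245019 and 230311 in WT. The KO sum was 0.723 of the WT sum, and no KO library came near a WT library. As a share of all normalized counts the cytosolic genes made up 0.397%, 0.396% and 0.395% in KO and 0.526%, 0.526% and 0.527% in WT. The 16 mitochondrial genes summed to 29825, 29451 and 29994 in KO and 23039, 23175 and 22778 in WT, a factor of 1.29. The cytosolic sum was accordingly 5.8, 5.9 and 5.7 times the mitochondrial sum in KO and 10.4, 10.6 and 10.1 times in WT.

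To set the compartments against each other for the same amino acid within a library, the normalized count of the cytosolic gene was divided by that of its mitochondrial counterpart in 17 pairs. EPRS was set against both EARS2 and PARS2, and FARS2 against both FARSA and FARSB, so not all pairs are separate comparisons. The ratio was lower in every KO library than in every WT library in 15 of the 17 pairs, with a median log2 difference of −0.81. Of all single genes tested 65.2% did not overlap between groups, and 32.5% lay lower in every KO library. The share among ratios of other gene pairs was not computed. For cysteine, CARS over CARS2 was 0.324, 0.321 and 0.325 in KO and 1.43, 1.46 and 1.48 in WT. The cytosolic transcript was thus the more abundant of the pair in WT and the less abundant in KO, in counts that are not corrected for length. For serine, SARS over SARS2 was 3.25, 3.42 and 3.35 in KO and 11.8, 10.8 and 11.3 in WT, and for alanine, AARS over AARS2 was 2.26, 2.43 and 2.25 in KO and 7.58, 8.54 and 7.19 in WT. These 3 pairs had KO ratios of 0.222, 0.297 and 0.299 of the WT ratios.

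The KO ratio for methionine was 0.385 of the WT ratio, for isoleucine 0.433, for tyrosine 0.451 and for threonine 0.454, without overlap between groups. The exceptions were RARS over RARS2, with 3.78, 3.67 and 3.47 in KO and 3.52, 3.17 and 3.29 in WT, and FARSB over FARS2, with 12.5, 13.5 and 11.9 in KO and 13.5, 11.1 and 11.6 in WT. In these pairs both genes rose by similar factors and the ratios overlapped. With 3 libraries against 3 the two-sided exact permutation test cannot give a p below 0.1, which the 15 pairs reached (0.113 adjusted over the 17 pairs by Benjamini-Hochberg), so none can pass 0.05.

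**Figure D3:**
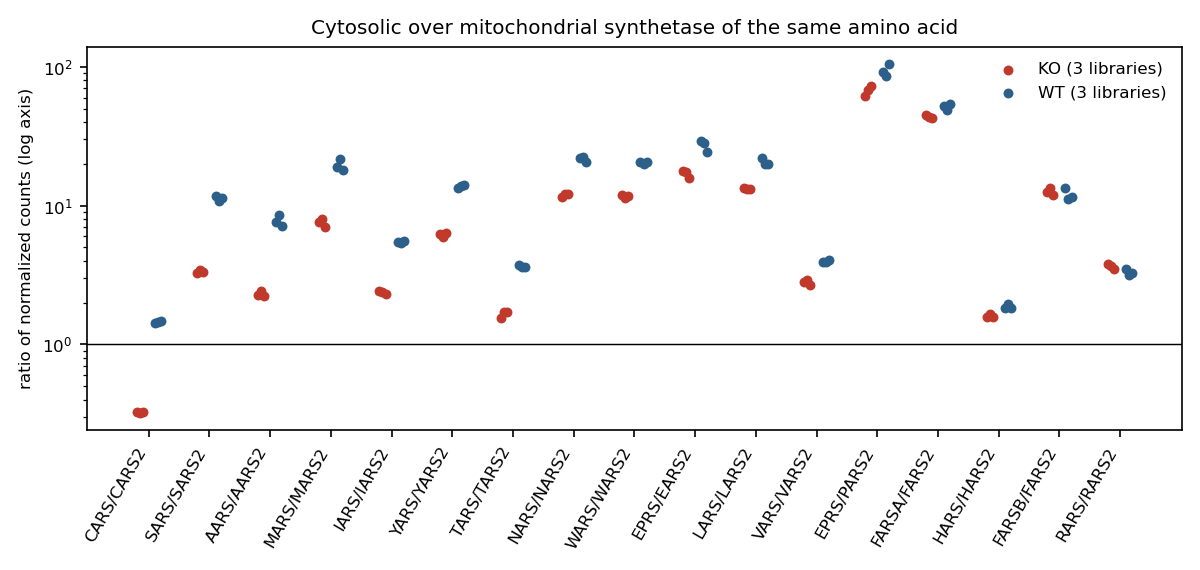
Ratio of the cytosolic to the mitochondrial synthetase of the same amino acid, by pair, in the 3 KO and 3 WT libraries, on a log axis, 1 point a library. EPRS and FARS2 each enter more than 1 pair. The ratio for cysteine lies at 1.43 to 1.48 in WT and 0.321 to 0.325 in KO, and the KO points lie below the WT points in 15 of the 17 pairs.

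Per kilobase of joined exons, the cytosolic synthetases were the more abundant in both groups. In WT the cytosolic levels ran from 455 normalized counts per kb in HARS to 9056 in FARSA, with a median of 2050, and the mitochondrial ones from 66.9 in PARS2 to 589 in YARS2, with a median of 274. In KO the cytosolic levels ran from 277 in CARS to 10299 in FARSA, with a median of 1354, and the mitochondrial ones from 82 in PARS2 to 821 in CARS2, with a median of 328. FARSA stood well above the next gene, KARS, at 3872 in WT and 3609 in KO. In WT the genes GARS, QARS and AARS followed KARS at 3709, 3513 and 3500 normalized counts per kb. In KO the level of AARS was 1215, below that of NARS (2814), FARSB (2146) and LARS (1696), all of which it exceeded in WT. Joined exons include rarely used ones, so a level per kb is a lower estimate for genes with many annotated exons, such as CARS and CARS2.

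**Figure D4:**
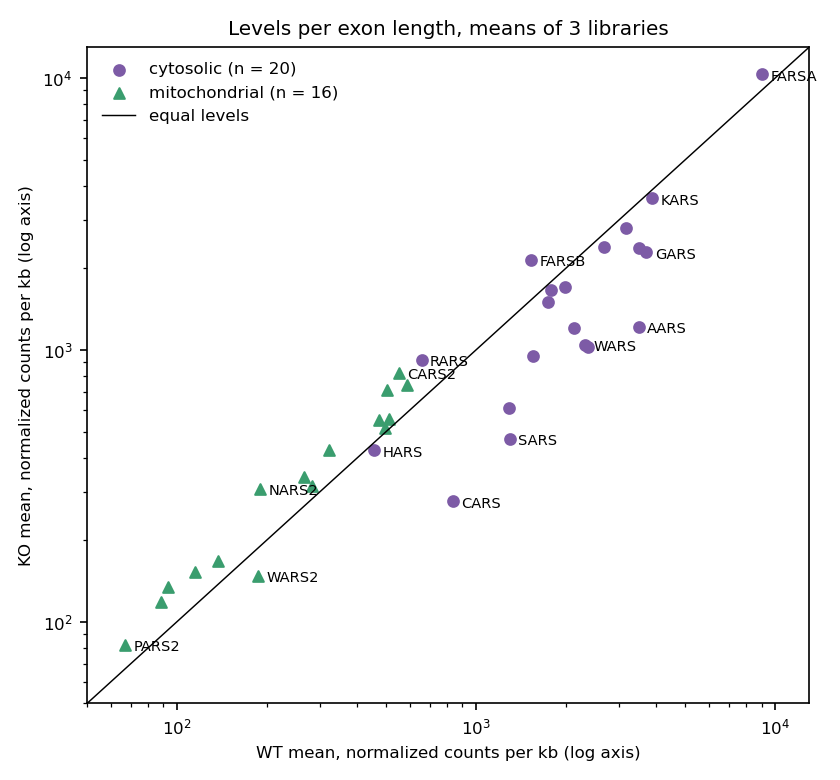
Mean normalized counts per kilobase of joined exons in KO against WT for each synthetase, both axes log10, with the diagonal of equal levels. FARSA stands alone at 9056 in WT and 10299 in KO, CARS lies furthest below the diagonal, and most mitochondrial genes lie above it.

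The spread within groups was small beside the larger changes. The coefficient of variation of the cytosolic genes lay between 0.481% and 4.46% in KO, around a median of 2.14%, and between 1.14% and 7.66% in WT, around a median of 4.08%. That of the mitochondrial genes was 1.16% to 9.19% in KO and 1.25% to 12.7% in WT, with PARS2 the most variable in both groups.

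The cytosolic genes were then set beside lists that were not part of the rule but were drawn up with earlier results of these data known. All 12 cytosolic genes on a list of known ATF4 targets (AARS, CARS, EPRS, GARS, IARS, LARS, MARS, NARS, SARS, TARS, WARS and YARS) were called lower, with a median log2 fold change of −0.95. The share of all genes tested was 30.3%. Of the other 8 cytosolic genes 3 were called lower (DARS, KARS and QARS), 3 higher (FARSA, FARSB and RARS) and 2 did not pass the test, with a median of −0.099. Outside the synthetases, all 23 genes of a list of ATF4 and its targets were called lower, against 30.3% of all genes tested. They had a median of −1.78 and a range of −4.08 to −0.65. ATF4 itself had 32831 ± 198 normalized counts in KO and 72597 ± 4214 in WT (SD, n = 3 each; log2 fold change −1.14, limma adjusted p = 2.3e-13). The largest changes of that list were those of ATF3, a stress-induced transcription factor, at −4.08, and of CHAC1, which degrades glutathione, at −3.81. ATF5, a transcription factor related to ATF4, had a log2 fold change of −2.88. Both lists, that of the 12 synthetases and that of the 23 other genes, were chosen with results of these data known. Neither is independent evidence of its direction.

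The 7 cytosolic genes with the match shown above (AARS, CARS, GARS, IARS, MARS, NARS and TARS) were all called lower, with log2 fold changes from −1.60 to −0.17 and a median of −1.08. The 9 cytosolic genes with a window and no match ran from −1.46 in SARS to 0.49 in FARSB, with a median of −0.10, 5 called lower and 3 higher. Of all genes tested 30.3% were called lower and 30.3% higher. The groups of genes overlap, since SARS and WARS fell further than TARS without a match in their windows, and NARS moved little with one. The 4 genes without a listed window were DARS, LARS, VARS and YARS. The match was present in 70.0% of the 10 known ATF4 targets among the cytosolic synthetases with a window and in 21.1% of 19 of the other ATF4 list. YARS2, the mitochondrial gene with a match, rose. A match describes letters in a window and is not a measured site.

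**Figure D5:**
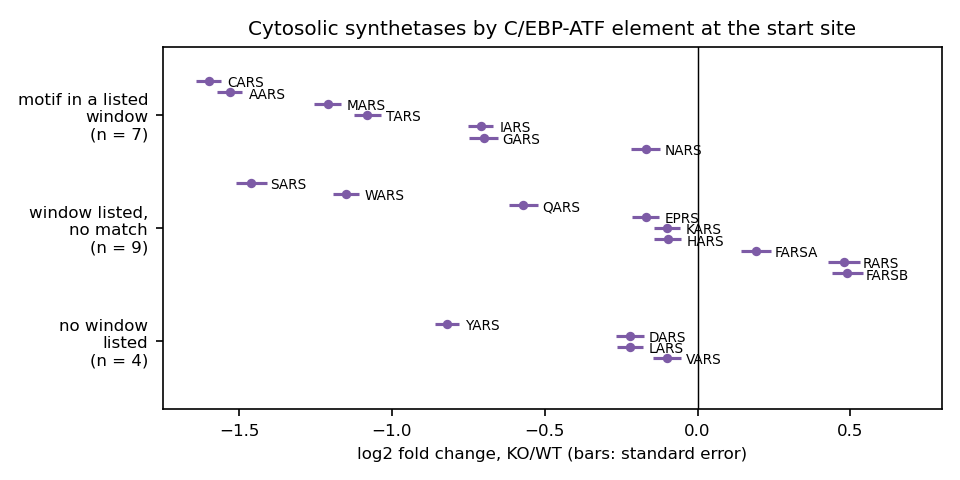
Log2 fold change of KO over WT of the cytosolic synthetases with its standard error as a bar, split by whether a window around the start holds the letters TGATGNAA or no window is listed, 1 point a gene. The 7 cytosolic genes with a match lie between −1.60 and −0.17, and the 9 with a window and no match between −1.46 and 0.49.

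Genes called lower and higher in KO were present both inside and outside the multisynthetase complex, an assembly of several cytosolic synthetases on scaffold proteins. Of its 8 synthetases DARS, EPRS, IARS, KARS, LARS, MARS and QARS were called lower and RARS higher, with a median log2 fold change of −0.22. The 12 cytosolic genes outside the complex had 8 called lower and 2 higher, with a median of −0.76. The difference between these medians was not tested. Among all genes tested 30.3% were called lower and 30.3% higher. Of the 3 scaffold genes AIMP1 had 5742 ± 293 normalized counts in KO and 5701 ± 297 in WT (log2 fold change 0.01, limma adjusted p = 0.87) and AIMP2 a log2 fold change of 0.07 (limma adjusted p = 0.25). The third, EEF1E1, was higher in KO at 1633 ± 51.3 against 1395 ± 63.5 (log2 fold change 0.23, limma adjusted p = 0.0012). No scaffold gene was called lower, against 30.3% of all genes tested.

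Synthetases fall into structural classes that differ in the fold of the catalytic domain. Of the 9 cytosolic class I genes 7 were called lower, with a median log2 fold change of −0.71, and of the 10 class II genes 7, with a median of −0.19. EPRS, which joins a class I and a class II enzyme, was counted in neither. In mitochondria 8 of 9 class I genes and 5 of 7 class II genes were called higher, with medians of 0.40 and 0.29. Over all genes tested 30.3% were called lower and 30.3% higher. The compartments thus differed in direction within each class.

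Several members start close to a gene on the other strand, and in 10 of the 14 members with such a neighbour in the table the neighbour had the smaller log2 fold change in size. The 4 with a larger one were DARS beside DARS-AS1 (−0.35), KARS beside TERF2IP (−0.16), HARS beside HARS2 (0.12) and SARS2 beside MRPS12 (0.66). HARS and HARS2 are each other's neighbour, so that pair adds to both counts whatever its values. The members were chosen with earlier results known, so these counts only describe them. AARS starts 120 bases from DDX19B, an RNA helicase gene, which had 1185 ± 28.4 normalized counts in KO and 1086 ± 60.7 in WT (log2 fold change 0.13, limma adjusted p = 0.068), against −1.53 for AARS. DDX19B passed the test without WT2 (adjusted p = 0.02), in the other direction than AARS. GARS starts 128 bases from GARS-DT, a divergent transcript that was also lower (log2 fold change −0.39, limma adjusted p = 7.9e-07). WARS starts 387 bases from WDR25, which was lower too (log2 fold change −0.47, limma adjusted p = 0.0025). SARS2 starts 348 bases from MRPS12, a gene of the mitochondrial ribosome, which was also higher (log2 fold change 0.66, limma adjusted p = 3.8e-09). CARS2 starts 867 bases from ING1, which did not pass the test (log2 fold change −0.044, limma adjusted p = 0.55). Among the members named here, GARS (99), WARS (287), SARS2 (349), CARS2 (326), DARS (305), KARS (176) and HARS (437) share exon bases with their neighbour on the other strand. Whether the counting used strand is not known, so reads from these stretches cannot be told apart. Their part in the changes of the neighbours was not tested. GENCODE 29 names 14 pseudogenes after 11 of the members, and none of the 14 is listed in the table, so how reads from them were counted is not known.

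Other genes that charge, edit or recycle transfer RNA, in a list not split by compartment, were mostly higher in KO. Of 12 tested genes 9 were called higher and 1 lower, with a median log2 fold change of 0.33. The shares of all genes tested were 30.3% higher and 30.3% lower. DTD1 and DTD2, which clear wrongly charged transfer RNA by removing D-amino acids and, for DTD2, alanine, had log2 fold changes of 0.86 (limma adjusted p = 2.2e-07) and 0.81 (limma adjusted p = 9.0e-10). PTRH2, which releases peptides from stalled transfer RNA, had one of 0.41 (limma adjusted p = 3.4e-07).

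Of 20 genes for the maturation and export of transfer RNA 12 were called higher and 4 lower, with a median log2 fold change of 0.23. The shares of all genes tested were again 30.3% higher and 30.3% lower. POP1 and RPP40, subunits of ribonuclease P, which trims the front end of transfer RNA, had log2 fold changes of 0.98 (limma adjusted p = 4.5e-12) and 0.85 (limma adjusted p = 5.5e-06). Its subunits RPP25 (log2 fold change −0.61, limma adjusted p = 1.6e-05) and RPP21 (−0.34, limma adjusted p = 1.8e-04) were called lower. RPP38 did not pass the test (limma adjusted p = 0.67), and its other listed subunits were called higher. RPP25, RPP21 and RPP38 are named for this and not by the rule for named genes. SSB, the La protein, which shields the tail of new transfer RNA, had 11416 ± 299 normalized counts in KO and 6821 ± 241 in WT (log2 fold change 0.74, limma adjusted p = 1.8e-11). XPOT, which carries transfer RNA out of the nucleus, was among the 4 genes called lower. It had 9648 ± 206 in KO and 14294 ± 461 in WT (log2 fold change −0.57, limma adjusted p = 7.4e-10).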

How the data were processed

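Total RNA had been isolated from HL60 cells and sequenced as mRNA after polyA selection, per the study's supplement, in 6 libraries, 3 KO and 3 WT by their labels. The submitters' processing notes name Trimmomatic 0.36, featureCounts of Subread 1.5.2, DESeq2 and GRCh38. For the aligner, the annotation release and the use of strand, the sources used here give nothing. The authors deposited normalized counts, a signal made by scaling each library's read counts with a size factor. The deposited table also holds the authors' log2 fold changes and p-values of KO against WT, which were not used. Dividing by the value of 1 read recovered whole reads for 100% of values in each library (tolerance 0.01 reads). No column came from an unknown sample.

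Genes that averaged 10 normalized counts or more (17425 of 17499) were tested on log2(value + 1) in limma 3.58.1 (R 4.3.3) with a variance trend, in place of the t test of the study's methods, with Benjamini-Hochberg adjustment over all of them. Pair ratios were compared by two-sided exact permutation (scipy 1.17.1). Gene positions, exon lengths and neighbours came from GENCODE 29 (GRCh38), with 17420 genes (99.55%) matched, and promoter windows from RefSeq. The script was tested on simulated data. The alternatives covered pseudocounts, low-value filters, TMM and equal library totals, edgeR 4.0.16 (10611 genes called) and DESeq2 1.42.0 on recovered reads, the variance trend, a replicate block, a stricter threshold, exon length, protein-coding genes and libraries left out. Named genes were all members, AKIRIN2, neighbours starting within 1000 bases on the other strand, and in each other list 2 genes by size of change and 2 by level. A gene of these is not reported here. The members and lists were chosen with earlier results of these data known.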

Additional observations from a re-analysis of the deposited data

How the results depend on the processing

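Of the 36 synthetases, 26 kept their direction and their side of the threshold in all 20 alternatives, and no synthetase changed direction. Counted by gene and setting, 675 results stayed on their side of the threshold, 32 lost a call and 13 gained one. The number of cytosolic genes called lower ranged from 12 (WT1 and KO3 left out together) to 16 (without WT3), and that of mitochondrial genes called higher from 11 (DESeq2 on recovered reads) to 15 (equal library totals). Over all genes, 8618 (protein-coding genes only) to 10611 (edgeR) were called. With equal library totals, which shift the median of all genes by 0.0573, the cytosolic median was −0.34 and the mitochondrial median 0.40; the cause was not tested. Without each library in turn, the log2 fold change of AIMP1 ranged from −0.027 to 0.051 and that of ING1 from −0.075 to 0.0054. AIMP1 was at −0.027 without KO2 and −0.021 without WT3. ING1 was at 0.0054 without KO3, 0.014 with equal library totals and 0.018 without WT1 and KO3. None of these values of AIMP1 and ING1 passed the test.

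With the replicate number as a block, 14 cytosolic genes were called lower in place of 15, as KARS lost its call (adjusted p = 0.088). The count of mitochondrial genes called higher stayed at 13, since HARS2 lost its call (adjusted p = 0.064) and PARS2 gained one (adjusted p = 0.044), and the other counts of synthetases did not move. Deviations of libraries with the same number correlated at −0.0754 to 0.0516, and KO1 and KO3 each correlated better with a library of another number, so the numbers were not taken to pair the libraries. The highest correlation, 0.143, was between KO3 and WT1. None of the pair ratios of cytosolic to mitochondrial genes changed direction. The synthetases that gained or lost a call were KARS, HARS2, MARS2, PARS2, FARSA, NARS, EPRS, HARS, VARS and TARS2.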
